A study of Mus musculus with 4 samples.

Results

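Integrin and laminin genes were followed through development of the mouse lower molar. They were chosen by name: every non-control probe of the arrays whose gene name began with Itga, Itgb, Lama, Lamb or Lamc and a digit was taken. This gave 78 of 41174 probes and 37 of 27670 gene names. Of these, 32 were integrin or laminin chains and 5 were binding proteins whose array names begin the same way. A gene counted as measured when its brightest probe stood well above background in the Cy5 channel on at least 1 array or in the Cy3 channel on at least 2. By that rule 28 of the 32 chains were measured, 18 of 21 integrin chains and 10 of 11 laminin chains, among 17394 measured genes in all.

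The samples were whole first molar germs from the mandible of C57BL/6 mouse embryos at embryonic day (E) 11, 12, 14, 16 and 18, with no other treatment or genotype given. Each stage was a pool, and the labels do not say how many germs, embryos or litters went into it. Total RNA of E11, E12, E16 or E18 was labelled with Cy5 and hybridised with Cy3-labelled E14 RNA on 1 two-colour oligonucleotide array a stage, 4 arrays in all. No dye was swapped and no stage was replicated, so a value for a stage is 1 measurement, and a gene that lies on the same side of E14 on all 4 arrays cannot be told apart from a dye effect. Differences between 2 of the other stages cancel a dye effect that both arrays share.

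Integrins are receptors made of an alpha and a beta chain that span the cell membrane and tie the cytoskeleton to the matrix outside the cell or to other cells. Laminins are trimers of an alpha, a beta and a gamma chain and are main components of basement membranes, the sheets on which epithelia rest. In the tooth germ a basement membrane separates the dental epithelium, source of the enamel-forming ameloblasts, from the mesenchyme, source of the dentin-forming odontoblasts, and inherited loss of the hemidesmosomal integrin or of its laminin ligand blisters the skin and disturbs enamel. The chains were read in 4 lists by where each is best known: 8 epithelial chains, 10 mesenchymal and muscle chains, 6 leukocyte and platelet chains, and 8 chains of broad use.

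The stretches just before the gene start are shown for the chains that passed the trend test over the 4 arrays and for which a promoter window was found. They are the 250 bases before the start in RefSeq, build GRCm38.p6, 5′ to 3′ on the gene's strand. For Lamb3 the window lying first along the strand, of 2, is shown. Capitals mark matches, on either strand, to any of 5 short motifs: TGANTCA for AP-1, GGGCGG for the GC box, AGATAA for the GATA factors, GAGGAA for the core site of PU.1 and CAGCTG for an E-box.
Lamb3, chr1:193301744-193301993, plus strand: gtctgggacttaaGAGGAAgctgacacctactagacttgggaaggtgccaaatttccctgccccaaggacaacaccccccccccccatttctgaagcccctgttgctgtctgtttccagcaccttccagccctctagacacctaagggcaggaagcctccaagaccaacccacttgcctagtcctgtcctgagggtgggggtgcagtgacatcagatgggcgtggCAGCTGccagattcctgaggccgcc
Itgb1, chr8:128685404-128685653, plus strand: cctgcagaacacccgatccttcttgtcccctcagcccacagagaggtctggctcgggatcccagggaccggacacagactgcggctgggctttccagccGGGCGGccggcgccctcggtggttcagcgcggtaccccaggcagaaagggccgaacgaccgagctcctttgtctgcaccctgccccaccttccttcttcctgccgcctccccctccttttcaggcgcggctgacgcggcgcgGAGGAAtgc
Itga1, chr13:115101965-115102214, minus strand: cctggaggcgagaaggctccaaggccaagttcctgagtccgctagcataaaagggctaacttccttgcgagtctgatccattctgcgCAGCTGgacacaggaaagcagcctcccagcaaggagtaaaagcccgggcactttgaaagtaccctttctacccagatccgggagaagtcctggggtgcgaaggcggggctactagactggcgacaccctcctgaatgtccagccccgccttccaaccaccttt
Itga2b, chr11:102469884-102470133, minus strand: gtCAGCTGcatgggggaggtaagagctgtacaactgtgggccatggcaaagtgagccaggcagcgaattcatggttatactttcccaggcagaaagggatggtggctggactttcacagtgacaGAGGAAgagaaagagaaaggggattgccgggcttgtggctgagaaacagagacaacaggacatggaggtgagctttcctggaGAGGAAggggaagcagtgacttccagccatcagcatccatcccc
The Lamb3, Itga1 and Itga2b windows each hold 1 E-box, which was present in 13% of all 32851 windows of that length and in 7 of the 24 windows counted for 21 chains. Lama3 was left out of these chain counts. The Itgb1 window holds 1 GC box, present in 32.7% of all windows and in 8 of the 24. The PU.1 core, in the Lamb3, Itgb1 and Itga2b windows, was found in 12 of the 24 chain windows and in 23.3% of all windows. The AP-1 letters were found in 0 of the 24 (6.75% of all windows), as were those of the GATA factors (9.99%). These matches describe letters in the windows only, and nothing in the arrays measures binding there.

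The share of probes well above background was 52.5% to 59% in Cy5 and 54.3% to 57% in Cy3, and no spot was saturated. Over 245 probes spotted 10 times, the median SD between spots was 0.06 to 0.07 log2 units. The E14 level of a measured gene had a median SD of 0.05 log2 units over its 4 hybridisations, and 95% of genes stayed under 0.12. That SD was taken after mean spot intensities were quantile-normalized between the 4 arrays, so it leaves out general intensity differences between them. These spreads are technical and hold no difference between embryos. The arrays of E11 and E12 were on 1 slide and those of E16 and E18 on another, so the stages before and after E14 also differ by slide.

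The epithelial chains held the 3 steepest slopes, Itgb4, Lamb3 and Itga6. The integrin beta chain of the hemidesmosome, Itgb4, was 8.66-fold below E14 at E11 and 2.47-fold below at E12, and lay 1.36-fold above it at E16 and 1.06-fold above at E18. As log2 ratios to E14 these values are -3.11, -1.30, 0.44 and 0.08, so that both early stages lay below both late ones. The trend over embryonic day was 0.43 ± 0.10 log2 units per day (SE, 4 arrays, limma adjusted p = 0.0449). A second measured probe, which overlaps the first, gave -3.22, -1.37, 0.42 and 0.02. The E14 level of Itgb4 varied with an SD of 0.05 log2 units over the 4 arrays. In the build mm7 of the files the first probe lies at chr11:116117288-116117347 on the plus strand.

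Itga6, the alpha chain that pairs with Itgb4 in hemidesmosomes and also pairs with Itgb1, had log2 ratios of -2.37 and -1.45 at E11 and E12, then 0.13 and 0.40 at E16 and E18. The order of the 4 stages was thus the order of age. The slope was 0.39 ± 0.04 per day (limma adjusted p = 0.00933), and the level at E18 was 6.8-fold that at E11. The other probes of Itga6 also lay lowest at E11, with -1.99 and -1.66. At E18, however, they gave -0.26 and -0.59, below E14, where the brightest probe lay above it. The brightest probe is at chr2:71701626-71701685 (mm7, plus strand).

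Lama3 and Lamb3 are chains of the laminin ligand of that receptor. Lamb3 had log2 ratios of -2.64 and -2.09 at E11 and E12 and of 0.25 and 0.05 at E16 and E18. It rose by 0.42 ± 0.06 per day (limma adjusted p = 0.0149), most of it between E12 and E16, where the level differed 5.07-fold. That step is the longest in days and the only one between slides. Lama3, the alpha chain, had -1.16, -1.04, 0.85 and 0.05. It was highest at E16, 1.8-fold above E14, and lower again at E18. Its slope of 0.24 ± 0.07 did not pass the test (limma adjusted p = 0.0926). Both chains were therefore lower at E11 than at E14, Lama3 by 2.24-fold and Lamb3 by 6.22-fold, and higher at E16 than at E14, by 1.8-fold and 1.19-fold.

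Of the remaining epithelial chains, Itga3, whose product pairs with Itgb1 as a laminin receptor, had log2 ratios of -0.94, -0.05, 0.14 and 0.26. Its slope of 0.13 ± 0.05 missed the threshold (limma adjusted p = 0.139). A second probe of Itga3 gave -0.78, 0.03, 0.17 and 0.23, whereas the dimmest lay between -0.06 and 0.10 and did not share the low value at E11. Itgb6 makes an epithelial receptor with Itgav that activates latent TGF-beta and is needed for normal enamel. It was dim: E14 was not well above background on any array, and E11 was not either. At E18 its log2 ratio was 0.61, and its second probe gave 0.66. Itga2, an epithelial collagen receptor chain, was not well above background.

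**Figure D1:**
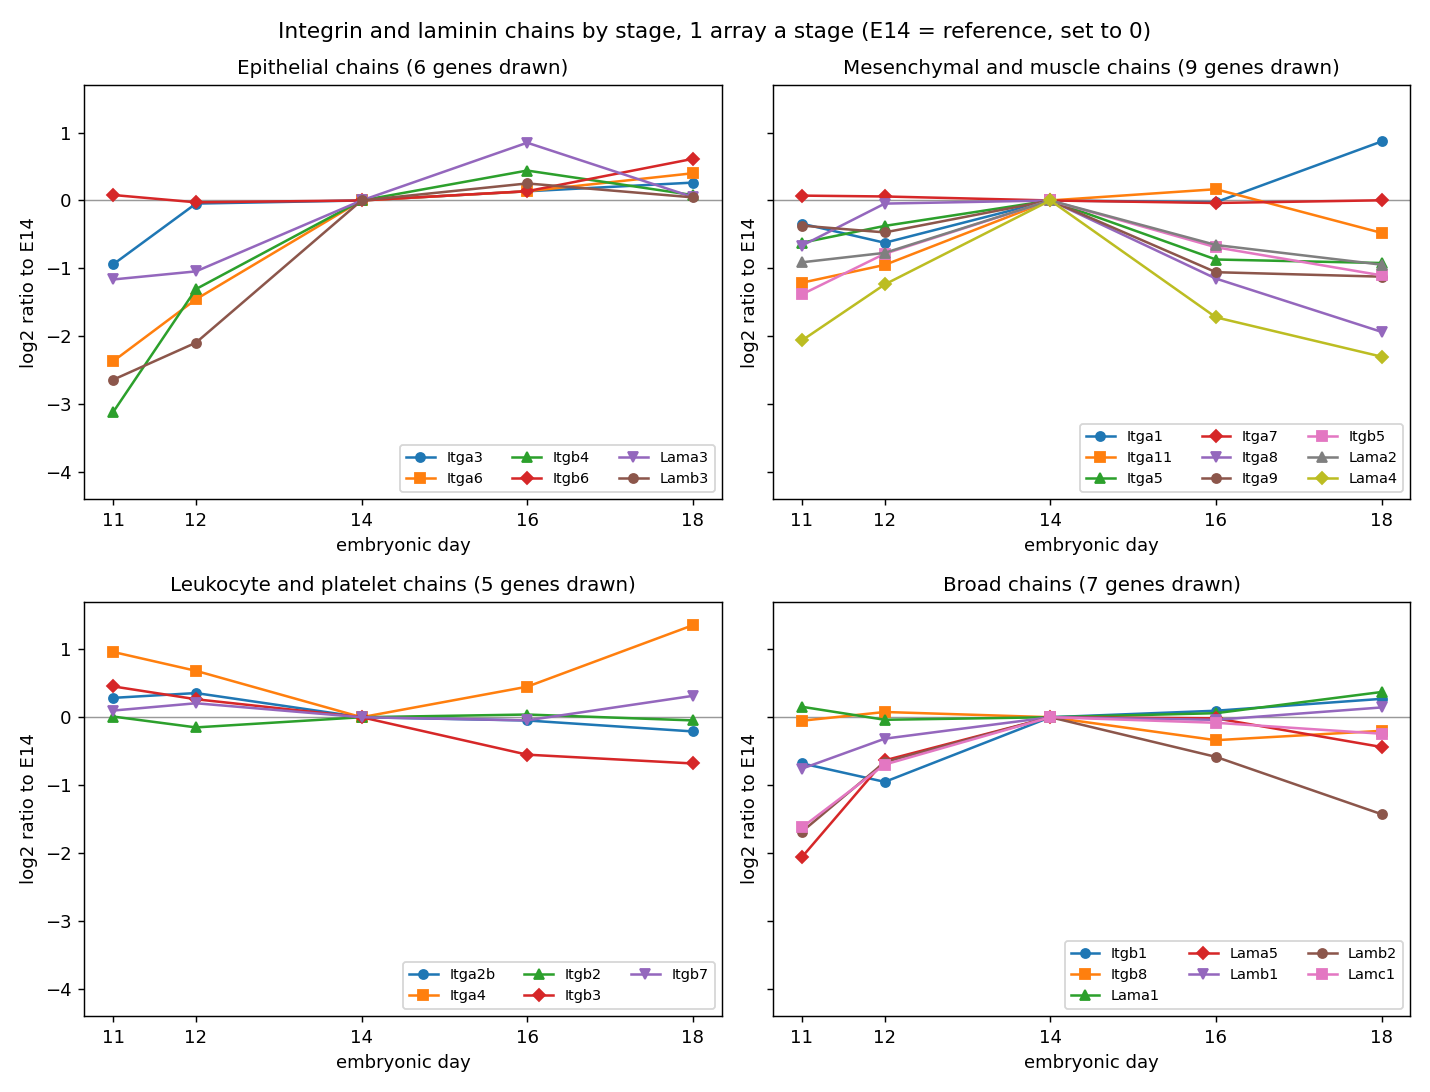
Log2 ratio to E14 (vertical axis) against embryonic day (horizontal axis) for 27 of the 28 measured chains, in 4 panels by list; each point is 1 array, and E14, the reference, is set to 0. Epithelial chains run from between -3.11 and 0.08 at E11 to between 0.05 and 0.61 at E18, while 6 of 9 mesenchymal and muscle chains lie below 0 on all 4 arrays, as do 21.9% of all measured genes.

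Among the broad chains, Itgb1, the beta partner of most laminin and collagen receptors, had log2 ratios of -0.68, -0.95, 0.10 and 0.27. It rose by 0.17 ± 0.04 per day (limma adjusted p = 0.0415). Its brightest probe carried 10 spots. A dimmer probe with 1 spot gave 0.09, -0.36, 0.17 and 0.18, so the low value at E12 was shared and the one at E11 was not.

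Lama5, the alpha chain of most adult epithelial basement membranes, was 4.16-fold below E14 at E11. Its log2 ratios were -2.06, -0.63, -0.02 and -0.44, and most of the difference lay between E11 and E12, a step of 2.68-fold. Lamc1, the gamma chain of most laminins, followed a like course with -1.62, -0.70, -0.08 and -0.24. Lamb1, a common beta chain, had -0.76, -0.32, -0.04 and 0.14 in the order of age. None of these slopes, 0.20 ± 0.08, 0.18 ± 0.05 and 0.11 ± 0.03, passed the test (limma adjusted p = 0.166, 0.0894 and 0.0856).

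Lamb2, known from the neuromuscular junction and the kidney filter, had another shape. It was below E14 by 3.21-fold and 1.58-fold at E11 and E12, and by 1.5-fold and 2.69-fold at E16 and E18. With each array centred on its median instead, its log2 ratios at E12 and E16 were 0.46 and 0.32, above E14. Lamb2 was lower at E11 than at E12, and lower at E18 than at E16, with loess and with median centring. Lama1, an early embryonic alpha chain, was dim, with E14 well above background on 2 arrays, and had 0.15, -0.04, 0.06 and 0.37. Its value at E11 was 0.58 with a normexp offset of 0 and 0.69 with the scanner's ratios. Itgb8, which pairs with Itgav, had -0.05, 0.08, -0.34 and -0.20 by its brightest probe, and 0.14, 0.18, 0.57 and 0.62 by another, so that these readings lie on opposite sides of E14 at E16 and E18. Lamc3 was not well above background by its brightest probe.

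The mesenchymal and muscle chains were mostly below E14 both before and after it. Lama4, the alpha chain of vessel walls and mesenchyme, was the one chain at least 2-fold below E14 on all 4 arrays, where 0.351% of all measured genes were. Its log2 ratios were -2.06, -1.24, -1.72 and -2.30, or 4.17-fold, 2.35-fold, 3.29-fold and 4.92-fold below E14. All 4 measured probes of Lama4 lay below E14 on every array, with the dimmest between -0.50 and -0.37. Lama4 was 1.77-fold higher at E12 than at E11 and 1.49-fold lower at E18 than at E16. A dye effect common to the arrays cancels in these steps.

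Itga8, a receptor chain for fibronectin, tenascin and nephronectin that is known from kidney mesenchyme, had log2 ratios of -0.66, -0.05, -1.15 and -1.93. Its level was nearest E14 at E12 and 3.82-fold below it at E18. A second probe gave -0.54, 0.05, -0.80 and -1.61, and the dimmest, above background on few arrays, lay between -0.17 and 0.13. The slope of -0.21 ± 0.05 missed the threshold (limma adjusted p = 0.0611). Itga9, a tenascin receptor chain, had -0.37, -0.47, -1.06 and -1.12. A brighter probe assigned to Itga9 by accession but carrying another array name lay outside the name rule and gave -0.57, -0.48, -1.19 and -1.61. Itga5, the classical fibronectin receptor chain, had -0.62, -0.37, -0.87 and -0.92.

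Itgb5, which pairs with Itgav, was read by a bright probe. Its log2 ratios were -1.38, -0.78, -0.69 and -1.10, but the raw mean signals were 12914 in Cy5 against 10323 in Cy3 on the E11 array. The side of E14 on which it lay at E11 therefore rested on the intensity-dependent normalization: with each array centred on its median instead, the value was 0.08. Lama2, the laminin alpha chain of muscle and nerve, had -0.91, -0.77, -0.66 and -0.94, a range of 0.29 over the 4 stages. Under median centring Lama2 and Lama4 were the only chains below E14 on all 4 arrays, against 9 chains with loess. Of the 108 values of the 27 named chains, 30 lay on the other side of E14 under median centring, 12 of them at E12. In that setting 5.89% of all measured genes were below E14 on all 4 arrays, against 21.9% with loess.

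The remaining chains of this list went other ways. Itga1, a collagen receptor chain, rose by 0.17 ± 0.04 per day (limma adjusted p = 0.0477). Its log2 ratios were -0.34, -0.62, -0.03 and 0.87. At E11 and E12 this probe was not well above background in Cy5. Of the other probes of Itga1, 2 gave 1.01 and 1.18 at E18. The third, above background in both channels on all 4 arrays, gave -0.13, 0.05, -0.08 and 0.17, and shared neither the low value at E12 nor the high one at E18. Itga11, the collagen receptor chain of fibroblasts, had -1.21, -0.95, 0.17 and -0.48, highest at E16. Itga7, the laminin receptor chain of muscle, was near background and within 0.07 of E14 on every array. Itga10, a cartilage collagen receptor chain, was not well above background.

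**Figure D2:**
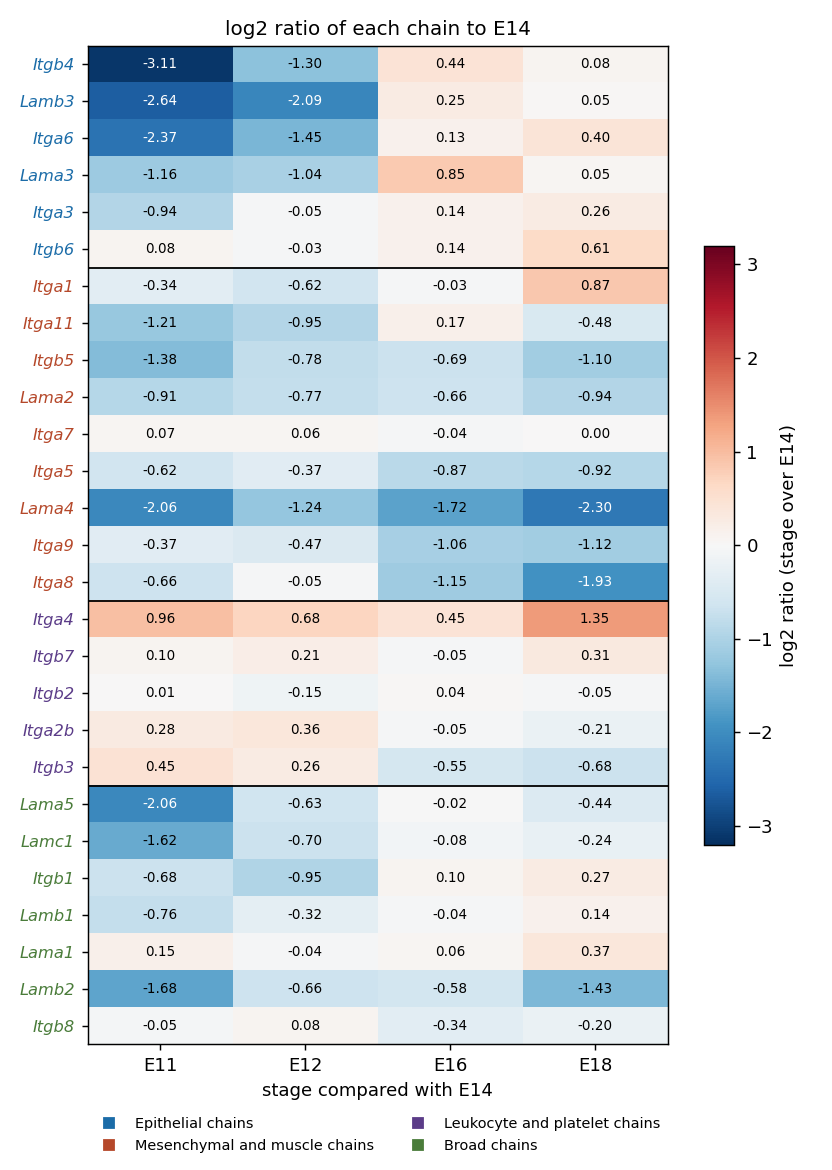
Log2 ratio to E14 of 27 of the 28 measured chains (rows, coloured by list and ordered by slope within a list) at each stage (columns); each cell is 1 array and its number is the plotted value. Blue cells at E11 and E12 in most epithelial rows turn pale or red at E16 and E18, but Itgb6 is pale at both early stages and Itga3 at E12. Lama4 is blue in all 4 columns, from -2.30 to -1.24.

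Among the leukocyte and platelet chains, the pair that forms the platelet fibrinogen receptor declined. Itgb3 had log2 ratios of 0.45, 0.26, -0.55 and -0.68 and fell by 0.17 ± 0.03 per day (slope -0.17, limma adjusted p = 0.0279). Its other measured probe was flat, between -0.05 and 0.08. Itga2b had 0.28, 0.36, -0.05 and -0.21, with a slope of -0.08 ± 0.02 (limma adjusted p = 0.0432). It was dim, and at E18 it was not well above background. Itgb3 is also the partner of Itgav on osteoclasts.

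Itga4, which pairs with Itgb1 or Itgb7 and binds VCAM-1 and fibronectin, was the only chain above E14 on all 4 arrays with loess, as were 21.4% of all measured genes. Its log2 ratios were 0.96, 0.68, 0.45 and 1.35, lowest at the stages next to E14. It was the one chain at least 2-fold above E14 on any array, at 2.56-fold on the E18 array. The 3 other measured probes of Itga4 were also above E14 on every array, between 0.03 and 0.59. Itgb2, the beta chain of the main leukocyte integrins, lay between -0.15 and 0.04, and Itgb7, of gut-homing lymphocytes, between -0.05 and 0.31. Itgb2l, a relative of Itgb2, was not well above background.

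**Figure D3:**
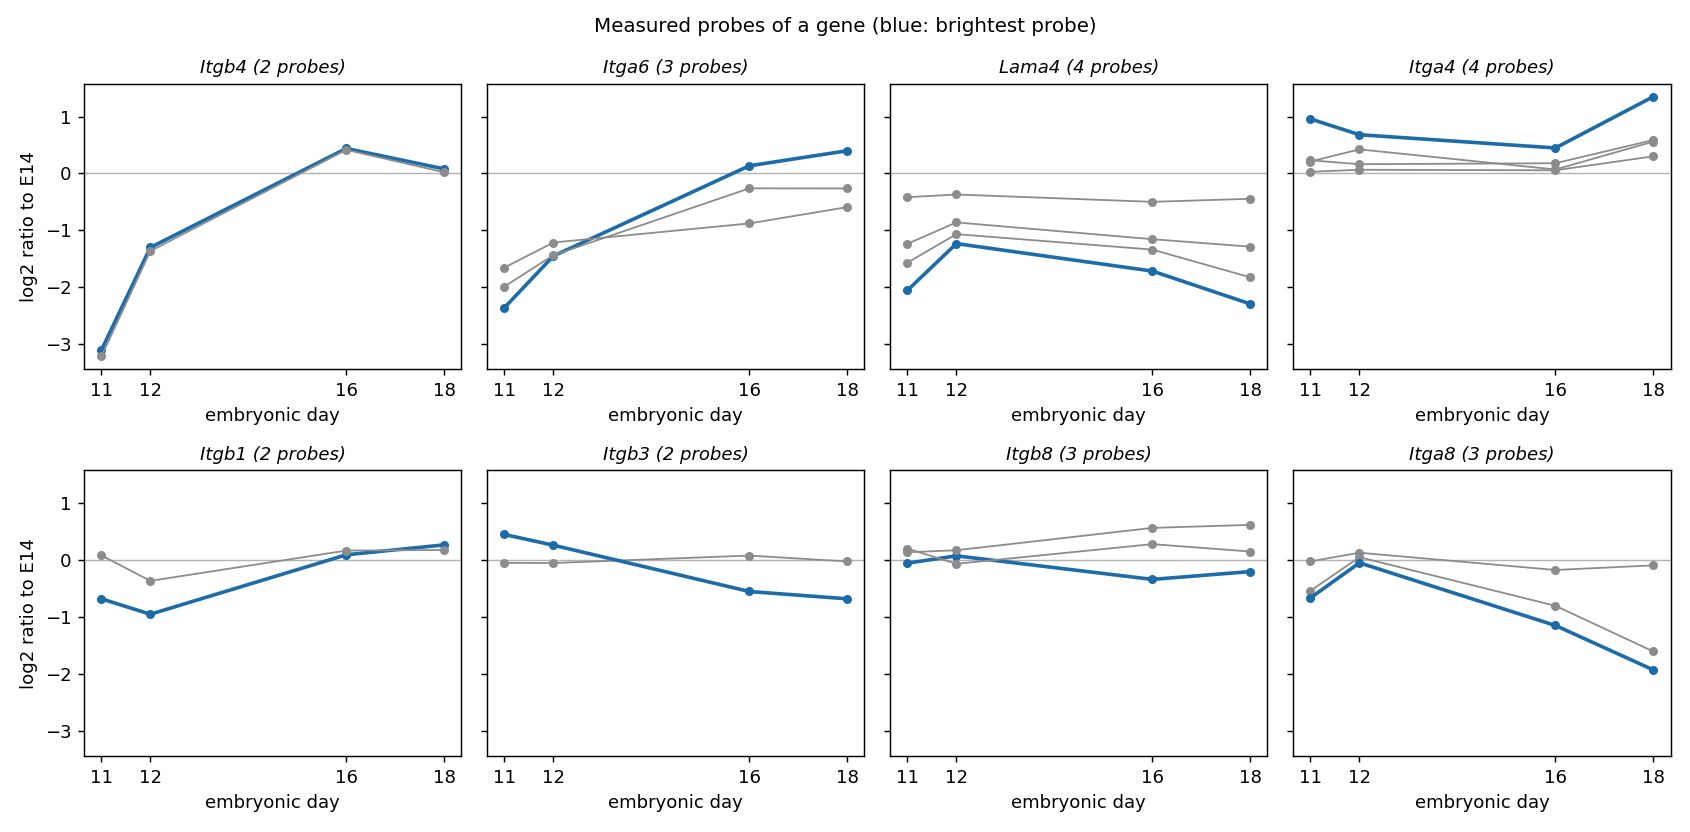
Log2 ratio to E14 (vertical axis) against embryonic day for each measured probe of 8 chains; the brightest probe is blue and the others grey, and each point is 1 array. The 2 probes of Itgb4 lie on each other, the 4 probes of Lama4 all lie below 0, and those of Itgb8 lie on both sides of it at E16 and E18.

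Counted by stage, 11 of 28 chains were at least 2-fold below E14 at E11, against 4.88% of all measured genes, and 0 were that far above, against 1.6%. At E12 there were 5 below (2.63% of all genes) and 0 above (0.316%). At E16 there were 3 below (1.7%), Itga8, Itga9 and Lama4, and 0 above (2.01%). At E18 there were 5 below (3.86%), Itga8, Itga9, Itgb5, Lama4 and Lamb2, and 1 above (3.81%), Itga4. The 11 chains low at E11 were 5 of 7 epithelial chains, 3 of 9 mesenchymal and muscle chains and 3 of 7 broad chains. These counts have no test, since each stage was 1 pool.

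The differences between the other stages were also counted by list. Because the lists were chosen with earlier results of these data known, the counts describe the lists and do not test a separation of them. From E11 to E18, 9 of 28 chains were at least 2-fold higher (5.93% of all genes), 6 of them among the 7 epithelial chains, and 2 were lower (2.52%), Itga8 and Itgb3. From E11 to E12, 4 chains were at least 2-fold higher (0.673% of all genes), Itgb4, Lama5 and Lamb2 among them, and 0 chains were lower (0.305%). From E12 to E16, 7 chains were higher (4.79%), 5 of them epithelial, and Itga8 was lower (1.48%). From E16 to E18, 0 chains were 2-fold higher (0.494%) and 0 lower (0.88%). With shares that small, 0 of 28 chains from E16 to E18 is near what all measured genes gave. Just short of 2-fold at that step were Itga4 and Itga1, at 0.90 and 0.89 log2 units. Lamb2 and Lama3, at -0.84 and -0.80, were also close to it. The step from E12 to E16 is the longest in days and the only one between slides. Timing therefore cannot be told apart from length of interval or slide.

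The trend test called 5 of 28 chains up, Itgb4, Lamb3, Itga6, Itga1 and Itgb1, where 6.26% of all measured genes were called up. It called 2 down, Itgb3 and Itga2b, where 2.63% of all genes were. Of the 5, 3 were among the 7 epithelial chains. A fit with slide as a block has 1 residual degree of freedom left, and in it 0 chains and 0 genes in all were called at an adjusted p, while 2 chains and 578 genes had an unadjusted p under 0.05. The slopes then were 0.29 ± 0.18 for Itga6, 0.22 ± 0.28 for Itgb4, 0.03 ± 0.18 for Lamb3, 0.30 ± 0.12 for Itga1 and 0.02 ± 0.17 for Itgb1. Those of Itgb3 and Itga2b were -0.09 ± 0.16 and -0.05 ± 0.07. None changed sign, but for Itgb4, Lamb3, Itgb1, Itgb3 and Itga2b the SE was larger than the slope, so the sign says little. Within the slide that held E11 and E12, Itgb4 was 1.81 log2 units higher at E12, Itga6 0.91 and Lamb3 0.55. On the other slide, E18 minus E16 was -0.36 for Itgb4, 0.27 for Itga6 and -0.20 for Lamb3.

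The calls also depend on single arrays. Without the E11 array 1 chain was called, Itga8, and none of the 7; without the E12 array only Itga6 was. Without the E16 array 13 chains were called, the 7 among them, and without the E18 array 9 were, with Itga6, Itgb4, Lamb3 and Itgb3 among them. When all measured probes of a gene were averaged, Itga2b, Itga6, Itga9 and Lamb3 were called. With median centring Itga1, Itga6, Itgb3 and Lamb3 were.

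**Figure D4:**
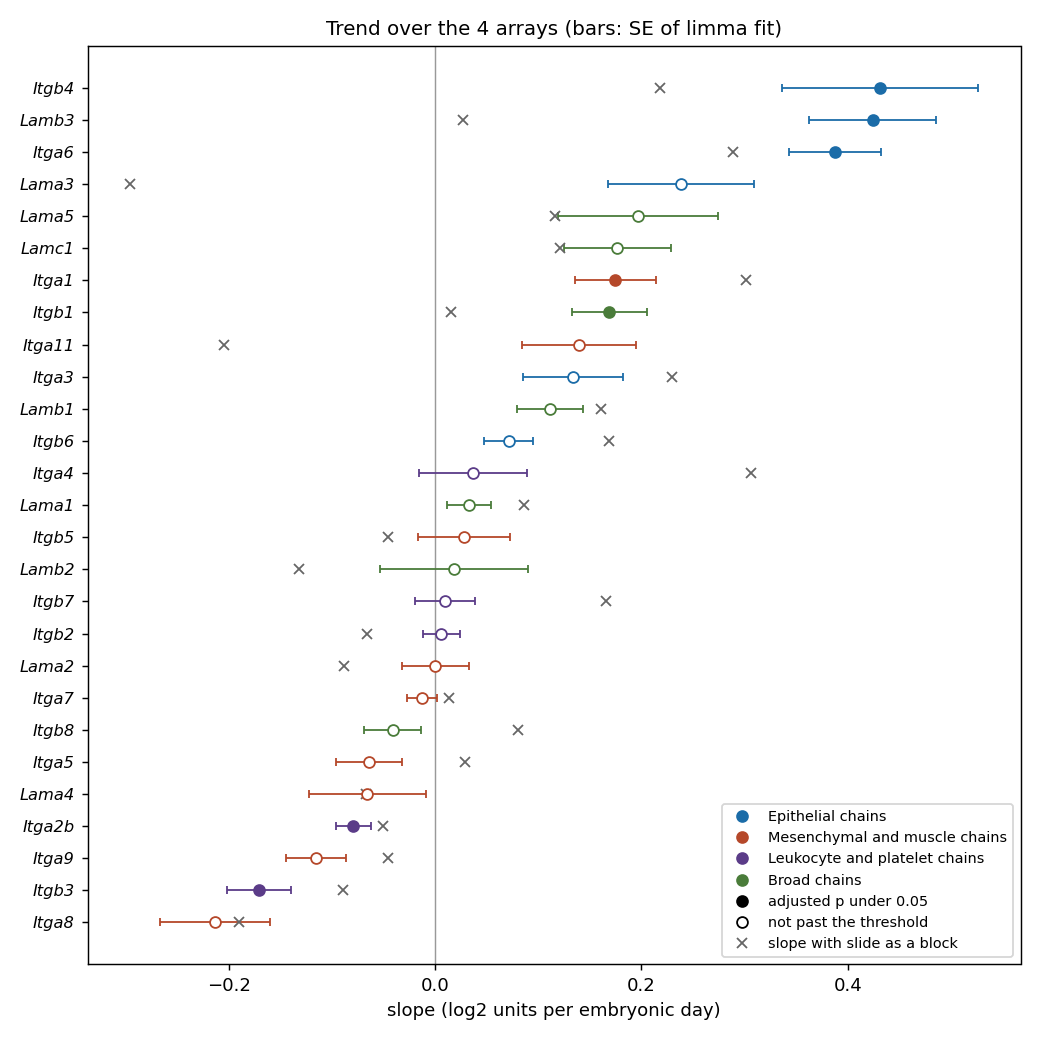
Slope of the log2 ratio per embryonic day (horizontal axis) for 27 of the 28 measured chains (rows), with bars for the SE of the limma fit over the 4 arrays; filled points passed an adjusted p of 0.05 and crosses give the slope with slide as a block. The 3 highest slopes are Itgb4, Lamb3 and Itga6 at 0.43, 0.42 and 0.39, and the lowest is Itga8 at -0.21.

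Set against each other, the median of the epithelial chains rose relative to that of the mesenchymal and muscle chains. This comparison is descriptive, since the lists were chosen with earlier results of these data known. The median log2 ratio of the 7 epithelial chains was -1.30 and -1.04 at E11 and E12, and 0.25 and 0.22 at E16 and E18. That of the 9 mesenchymal and muscle chains was -0.66, -0.62, -0.69 and -0.94. The epithelial minus mesenchymal difference was therefore -0.64 and -0.42 at the stages before E14, and 0.94 and 1.16 at those after it. Both medians are 0 at E14 by construction, so the change of sign there follows from the choice of reference. The stages before and after E14 also differ by slide. The 5 leukocyte and platelet chains had medians of 0.28, 0.26, -0.05 and -0.05, and the 7 broad chains -0.76, -0.63, -0.04 and -0.20. The median of all measured genes lay between -0.02 and 0.00. Median centring put that all-gene median at 0.40, 0.64, 0.57 and 0.17, and relative to it the mesenchymal and muscle chains had medians of -0.53, -0.62, -0.63 and -0.87, whereas on its own scale the value at E12 was 0.02.

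Whole germs hold several cell types, and in such samples fewer cells of a type and less RNA per cell cannot be told apart. For the marker counts that follow, the trend test called 6.26% of all measured genes up and 2.63% down. Markers of epithelium, a tissue that a molar germ holds, were all measured and 5 of 10 rose, with Krt5, a keratin of basal cells, by 0.60 ± 0.10 per day and Cdh1, the epithelial cadherin, by 0.42 ± 0.06 (limma adjusted p = 0.0193 and 0.0158). The list's median log2 ratio was -1.23, -0.44, 1.04 and 0.65, with members between -3.35 and -0.27 at E11 and between -1.05 and 1.67 at E18. The median of the epithelial chains was -1.30 beside -1.23 for these markers at E11, and lay below theirs at E12, E16 and E18. The part of epithelial cell share in the chains' levels was not tested.

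Markers of mesenchyme were also all measured and moved both ways: 5 of 10 fell and 2 rose. Prrx1, a transcription factor of limb and facial mesenchyme, had the steepest decline at -0.59 ± 0.04 per day, followed by Msx1 at -0.31 ± 0.05 and Pdgfrb at -0.26 ± 0.05 (limma adjusted p = 0.00523, 0.0255 and 0.0395). Lum and Dcn, proteoglycans of collagen fibres, rose by 0.46 ± 0.04 and 0.38 ± 0.08 (limma adjusted p = 0.00589 and 0.0385). The list's median was -1.29, -0.78, -0.43 and -1.46, with members between -3.92 and 2.14 at E18. The part of mesenchymal cell share in the chains' levels was not tested.

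Of the blood cell lists, the megakaryocyte and platelet markers fell in 6 of 8 genes. Ppbp, Pf4 and Clec1b, platelet chemokines and a platelet receptor, had slopes of -0.39 ± 0.04, -0.31 ± 0.05 and -0.25 ± 0.05 (limma adjusted p = 0.00897, 0.0185 and 0.0292). The list's median was 0.72, 0.58, -0.13 and -0.16, with members between -0.23 and 2.42 at E11 and between -0.51 and 0.04 at E18. That median fell, as did the dim Itga2b and the brightest probe of Itgb3, but the other measured probe of Itgb3 was flat. The part of these markers' cells in the 2 chains was not tested. Of 10 measured leukocyte markers Tyrobp rose, with a slope of 0.31 ± 0.05, and Coro1a fell, with a slope of -0.18 ± 0.03 (limma adjusted p = 0.0162 and 0.0242). The list's median was -0.33, -0.55, 0.07 and -0.11, with members between -0.76 and 0.69 at E11 and between -0.61 and 1.34 at E18, and Spi1, which defines myeloid cells, was not well above background. Of the other lists, 0 of 8 endothelial and 0 of 4 measured muscle markers passed the test, with Myod1, Myf5, Des, Ckm and Tnnc1 not well above background. Since 8.89% of all measured genes passed it, few or no calls in lists this short say little about a list. In the nerve and Schwann list 2 of 5 rose, Tubb3 and Stmn2, and in the erythroid list 3 of 7 fell, the embryonic globins Hbb-y, Hbb-bh1 and Hba-x.

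**Figure D5:**
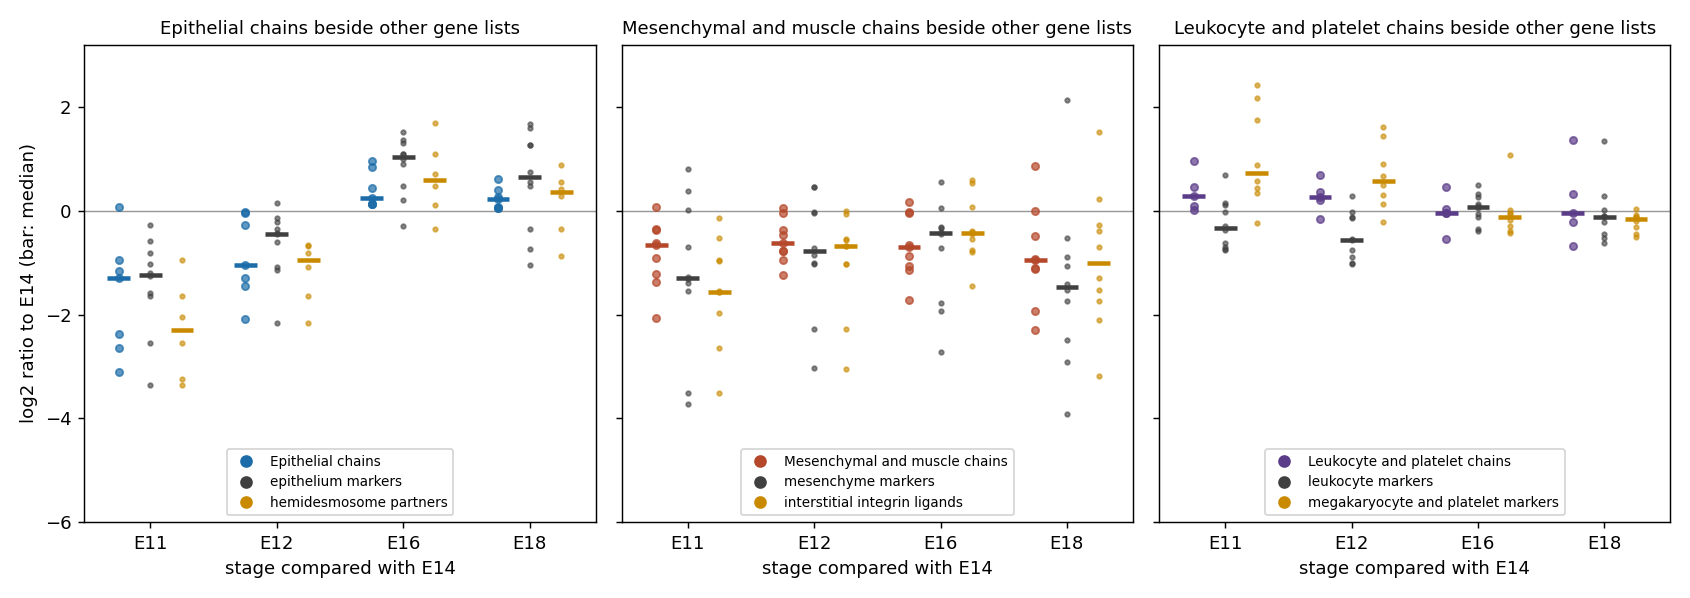
Log2 ratio to E14 (vertical axis) at each stage (horizontal axis) of epithelial, mesenchymal and muscle, and leukocyte and platelet chains, each beside 2 other gene lists; points are genes on 1 array and bars are medians. Epithelial chains have medians of -1.30 at E11 and 0.25 at E16, beside -1.23 and 1.04 for epithelium markers and -2.30 and 0.60 for hemidesmosome partners.

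Genes that act with these chains were read from lists of their own. Beside the counts in these lists, 6.26% of all measured genes were called up and 2.63% down. Among hemidesmosome partners 3 of 6 rose and 0 fell. Col17a1, a transmembrane collagen that joins Itga6 and Itgb4 in the hemidesmosome, had log2 ratios of -3.24, -1.64, 1.69 and 0.89 and a slope of 0.63 ± 0.12 (limma adjusted p = 0.0296). Cd151, a tetraspanin bound to laminin receptors, rose by 0.20 ± 0.03 (limma adjusted p = 0.012), and Krt5, a keratin anchored there, is given above. At E16 and E18 Col17a1 lay above E14 by more than Itgb4 did, 1.69 against 0.44 and 0.89 against 0.08.

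Of 12 measured basement membrane partners, Col7a1, Frem2 and Fras1 rose, by 0.46 ± 0.10, 0.36 ± 0.05 and 0.23 ± 0.05 per day (limma adjusted p = 0.0402, 0.0114 and 0.0446), and 0 fell. Col7a1 forms the anchoring fibrils below the epithelial sheet, and Fras1 and Frem2 belong to a complex on its mesenchymal side. Of 10 measured interstitial ligands, Spp1, a bone and dentin matrix protein bound by Itgav and Itgb3, rose by 0.61 ± 0.09 (limma adjusted p = 0.016). Fn1, the ligand of Itga5, had log2 ratios of -0.53, -0.01, -0.80 and -1.30. Npnt, a ligand of Itga8, had -0.97, -0.56, 0.60 and 0.22, opposite in sign to Itga8 after E14. Tnc, a ligand of Itga8 and Itga9, had -1.56, -0.68, -0.75 and -0.71. None of these 3 slopes passed the test, with limma adjusted p = 0.108, 0.0591 and 0.346.

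Among 17 integrin adaptors, which link the beta chain's tail to actin, 1 passed the trend test. Of all measured genes 8.89% passed it, so this count is near the general share. Tns1, a tensin, had a slope of -0.16 ± 0.03 (limma adjusted p = 0.0449), with log2 ratios of -0.09, 0.18, -0.62 and -1.06. All 17 adaptors lay between -0.90 and 0.33 at E11 and E12, and between -1.06 and 0.33 at E16 and E18. The list median stayed between -0.21 and -0.12. Of the integrin chains with letters in place of numbers, Itgav, the partner of Itgb3, Itgb5, Itgb6 and Itgb8, rose by 0.19 ± 0.03 per day (limma adjusted p = 0.0258). Its log2 ratios were -0.97, -0.86, 0.15 and 0.22. Itgal had -0.04, -0.10, -0.07 and 0.02, and Itgae had 0.34, 0.28, 0.12 and 0.10. Itgam and Itgax, chains of myeloid cells, were not well above background, and no probe was found for Itgad.

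Of the 5 binding proteins that the name rule also took in, 4 were measured and 0 passed the trend test. With 8.89% of all measured genes called, 0 of 4 says little. Eif6, a ribosome factor named on the array for its binding to Itgb4, lay between 0.27 and 0.39 on all 4 arrays. Itgb1bp1, a regulator of Itgb1 activation, lay between 0.22 and 0.45. Itgb3bp, a centromere protein despite its name, had 1.09, 0.48, 0.59 and 1.29, or 2.12-fold above E14 at E11 and 2.45-fold at E18. Itgb1bp2, a muscle protein, was above background in Cy5 at E12 only, with 0.16, and Nmrk2, named Itgb1bp3 on the array, was not measured.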

How the data were processed

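Pooled whole molar germs were measured on 4 two-colour Agilent arrays, with E14 in Cy3 and E11, E12, E16 or E18 in Cy5, per the labels. Per the file headers, the deposited scanner files were made with Agilent Feature Extraction 10.5.1.1 and hold linear intensity values for each spot, with a LogRatio column that gives log10 of Cy5 divided by Cy3. The deposited series value table matched that log10 column in 100% of its values within a relative tolerance of 0.006, with column medians of 0, so its scale and direction are known. Further steps by the authors are not given in the sources used here.

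Log2 ratios were computed from the deposited intensity values with limma 3.58.1 in R 4.3.3: normexp background correction (offset 50), loess within each array with control spots at weight 0, outlier spots left out, and spots of a probe averaged. The offset draws ratios of dim genes towards 0. For the SD of the E14 channel only, mean spot intensities were then quantile-normalized between arrays. A gene took its probe with the highest mean signal, for the chains among the probes found by name. Array names were updated to RefSeq symbols (GRCm38.p6 table, names and order only). Of 41174 probes, 22951 were named by accession, 6659 by symbol, and 3109 by synonym, while 8455 were left under the name on the array. A linear slope in embryonic day over the 4 arrays was tested with lmFit and eBayes (prior variance a function of intensity), and p-values were adjusted by Benjamini-Hochberg across the 17394 genes. The step was run on simulated data with known slopes and the noise of the E14 channel. That noise holds no difference between pools or slides, so the run does not bear on the calls made here. With 2 residual degrees of freedom and no replicate of a stage, the p-values of the trend test set the slope against the scatter about the line over 4 pools. The eBayes step moderates that scatter by that of other genes of like intensity, so a p-value does not rest on the gene's own scatter alone. Counts at least 2-fold apart have no test.

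Members and lists were chosen with earlier results of these data known. Of the 28 measured chains 27 are named; the other is in counts and medians but is not reported here by name. Named from other lists are up to 3 genes at either end among those past the test and a fixed set (Itgav, Itgal, Itgam, Itgax, Itgae, Itgad, Fn1, Col17a1, Npnt, Tnc). Alternatives were other background corrections, median centring, the scanner's ratios, the series value table, no filter, the mean of a gene's probes, slide as a block and leaving out each array.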

Additional observations from a re-analysis of the deposited data

How the results depend on the processing

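No paired analysis was possible because each stage was 1 array and its number carries no pairing. Where a setting moved a value, the cause was not tested. With loess the chains at least 2-fold from E14 numbered 11, 5, 3 and 6 on the E11, E12, E16 and E18 arrays. They numbered 7 at E11, 3 at E12 and 7 at E16 with median centring, 10, 6 and 11 at E12, E16 and E18 with a normexp offset of 0, 11, 5 and 13 there with the scanner's ratios and likewise with the series value table, and 10 at E18 without background correction. The epithelial minus mesenchymal median kept its sign at every stage and setting. At E11 it was -0.88 without background correction, -1.02 with offset 0, -0.77 with median centring, -1.20 with either deposited ratio and -0.54 with the mean of probes. At E12 these were -0.57, -0.59, -0.12, -0.64 and -0.57, and -0.11 without the filter. At E16 they were 1.05, 1.34, 1.27 and 1.41, and 0.87 without the filter. At E18 they were 1.34, 1.57, 1.32 and 1.68, and 0.97 with the mean of probes.

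The 7 chains past the trend test became 4 with median centring, 4 with the mean of probes, 0 with slide as a block and 1 to 13 when an array was left out. None of the 7 changed sign under any setting, though with slide as a block most of these slopes were smaller than their SE. With median centring 30 of 108 values of named chains moved to the other side of E14, 6 at E11 (Itga8, Itga9, Itgb1, Itgb5, Itgb8 and Lamb1), 12 at E12, 9 at E16 and 3 at E18. Itgb5 at E11, at 0.0773, was the only one of them at least 2-fold from E14 with loess. The other settings moved 0 to 10 of the 108. Among slopes of the 27 named chains that did not pass the test, those that changed sign with slide as a block were Itga11 (-0.205), Itga5 (0.0288), Itga7 (0.0134), Itgb2 (-0.0665), Itgb5 (-0.0458), Itgb8 (0.0807), Lama2 (-0.0881), Lama3 (-0.296) and Lamb2 (-0.132). With median centring they were Itgb5 (-0.053), Itgb7 (-0.0136), Lama2 (-0.04) and Lamb2 (-0.0451). The slope of Lama2 was -0.0095 with offset 0, -0.0306 with the scanner's ratios and -0.0307 with the series value table, where Lamb2 gave -0.0021 and -0.0022, and Itgb8 gave 0.0171 with the mean of probes. With an array left out, slopes ranged across 0 from -0.0897 to 0.0875 for Itga4, -0.0054 to 0.0215 for Itgb2, -0.042 to 0.106 for Itgb5, -0.0385 to 0.0264 for Itgb7, -0.0065 to 0.0619 for Lama1, -0.0207 to 0.0447 for Lama2, -0.169 to 0.0139 for Lama4 and -0.107 to 0.163 for Lamb2. Signal over background limits Itga1, Itga2b, Itga7, Itgb2, Itgb6 and Lama1, and Lama3 and Lamb3 at E11, whose ratios are drawn towards 0.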
